A study of Mus musculus with 4 samples.

Results

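Adipocytes release glycerol when they break down triglyceride and need glycerol 3-phosphate when they make it. The 5 genes described here, Aqp7, Gk, Pck1, Gpd1 and Gpd2, encode the channel that lets glycerol leave the fat cell and the enzymes at the glycerol 3-phosphate branch point. They were chosen as a group by their known roles, with earlier results of these data known, and were found by symbol in an RNA-seq dataset with 24421 gene symbols, in which Gk is written Gyk. In epididymal fat of weight-cycled mice (WC1), Aqp7 was 2.29-fold, Pck1 1.76-fold and Gpd1 1.55-fold higher than in mice kept on high-fat diet (Ctrl), whereas Gk and Gpd2 did not pass the test across all genes. Of 10 adipocyte marker genes 8 rose over the same comparison, but 0 of the 10 passed when there was no filter on low values. Of 6 endothelial markers 5 rose, and of 10 macrophage markers 5 fell. Over all tested genes 10.2% rose and 7.71% fell. Of the 5 genes Aqp7 had the change closest in size to the mean change of the 10 adipocyte markers.

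Epididymal adipose tissue, the visceral fat pad beside the epididymis, was taken from male C57BL/6J mice of WT genotype with different diet histories. The WC1 mice were 8 weeks old when they began a high-fat diet (HFD), were fed it for 8 weeks, were moved to standard diet (SD) for 2 weeks to lose weight, and had HFD again for 6 weeks. The Ctrl mice were 10 weeks old at the start and had HFD without interruption for 14 weeks, so that both groups had had 14 weeks of HFD in all and were 24 weeks old at the end. Poly(A) RNA was sequenced as 2 libraries per group, which held between 61465029 and 90965297 reads assigned to genes, and the labels do not say whether each library came from 1 animal or from a pool.

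Triglyceride is made by joining fatty acids to glycerol 3-phosphate. White adipocytes have long been described as poor in glycerol kinase, so that the glycerol freed by lipolysis mostly leaves through the aquaglyceroporin Aqp7 and is taken up by the liver. Glycerol 3-phosphate is then made from dihydroxyacetone phosphate by the cytosolic dehydrogenase Gpd1, with the carbon coming either from glucose or, in glyceroneogenesis, from pyruvate and lactate by way of the cytosolic phosphoenolpyruvate carboxykinase Pck1. Gk, glycerol kinase, phosphorylates glycerol directly, and Gpd2 in the inner mitochondrial membrane oxidizes glycerol 3-phosphate back to dihydroxyacetone phosphate, which together with Gpd1 makes up the glycerol phosphate shuttle. The nuclear receptor PPARγ, which pairs with RXR on repeats of the half-site AGGTCA, is known to drive Aqp7 and Pck1 in adipocytes, and Pck1 is a classic target of cAMP signalling through CREB, whose core motif is TGACGT.

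The promoter bases of Aqp7 and Pck1, the genes with the largest changes, are shown because known regulators act there, and those of Gk are shown beside them as a member that did not pass the test. They are the 250 bases before the annotated RefSeq gene start on GRCm38.p6, 5′ to 3′ on the strand of the gene, and capitals mark each match, on either strand, to the PPARγ half-site AGGTCA, the CREB core TGACGT or the GC box GGGCGG. On the opposite strand the half-site reads TGACCT, the CREB core reads ACGTCA and the GC box reads CCGCCC. The windows lie at chr4:41048137-41048386 (minus strand) for Aqp7, chr2:173152823-173153072 (plus strand) for Pck1 and chrX:85776820-85777069 (minus strand) for Gk.
Aqp7: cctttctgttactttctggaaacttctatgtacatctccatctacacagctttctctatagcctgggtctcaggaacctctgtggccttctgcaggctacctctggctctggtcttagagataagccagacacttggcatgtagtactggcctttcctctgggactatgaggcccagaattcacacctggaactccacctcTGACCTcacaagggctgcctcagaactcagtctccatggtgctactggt
Pck1: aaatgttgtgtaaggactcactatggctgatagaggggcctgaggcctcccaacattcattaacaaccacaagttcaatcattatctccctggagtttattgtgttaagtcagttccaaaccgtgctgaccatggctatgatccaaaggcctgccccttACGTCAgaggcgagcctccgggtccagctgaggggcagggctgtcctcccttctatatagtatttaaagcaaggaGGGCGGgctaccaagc
Gk: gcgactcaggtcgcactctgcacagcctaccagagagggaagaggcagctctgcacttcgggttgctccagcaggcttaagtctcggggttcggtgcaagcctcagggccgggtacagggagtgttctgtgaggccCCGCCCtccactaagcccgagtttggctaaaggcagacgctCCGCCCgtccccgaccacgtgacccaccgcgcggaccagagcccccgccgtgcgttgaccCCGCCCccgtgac

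The Aqp7 window holds AGGTCA on the opposite strand from base -49 to base -44, counted back from the gene start. A second annotated Aqp7 start, at 41047962, has this same match and another one from -101 to -96 of its own window. The Pck1 window holds TGACGT on the opposite strand from -91 to -86 and GGGCGG from -16 to -11. The Gk window holds no AGGTCA or TGACGT but has 3 GC boxes, the nearest from -13 to -8. Gpd2 has a pair of annotated starts, and its windows hold only 1 GC box, in the second. Of all 32851 RefSeq windows of this length, 14.0% hold AGGTCA, 6.47% hold TGACGT and 32.7% hold GGGCGG. The full direct repeat of AGGTCA with 1 base between, which 11 of the 32851 windows hold, is in none of the windows of Aqp7, Gk, Gpd2 and Pck1. These are matches of letters within these windows, none of the 3 motifs overlaps another in them, and binding was not measured.

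Levels are given as CPM, reads scaled by a library size that the authors set for each library, and, where genes are compared with each other, as TPM, which also corrects for transcript length. WC1 was compared with Ctrl by limma on log2(CPM + 1) over the 14106 genes that reached 0.5 CPM in 2 or more of the 4 libraries, and a gene is said to have risen or fallen where its Benjamini-Hochberg adjusted p over all these genes was under 0.05. All 5 genes passed that filter on low values. Of all genes tested, 1443 (10.2%) were higher and 1088 (7.71%) lower in WC1, together 17.9% of those tested, while the TPM matrix gave 1949 higher and 552 lower. The median log2 fold change of all tested genes was -0.02. Of the 5 genes 3 rose and 2 did not pass, and the median log2 fold change over the 5 was 0.63. Groups of 2 libraries often separate: in 32.7% of all tested genes both WC1 values lay above both Ctrl values and in 36.6% both lay below, and the first was so for 4 of the 5. P-values here measure the spread between libraries, which limma draws toward that of other genes of similar abundance. Whether the spread between libraries is one between animals is not stated. The samples are bulk tissue, in which fewer cells of a type and less RNA per cell cannot be told apart.

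**Figure D1:**
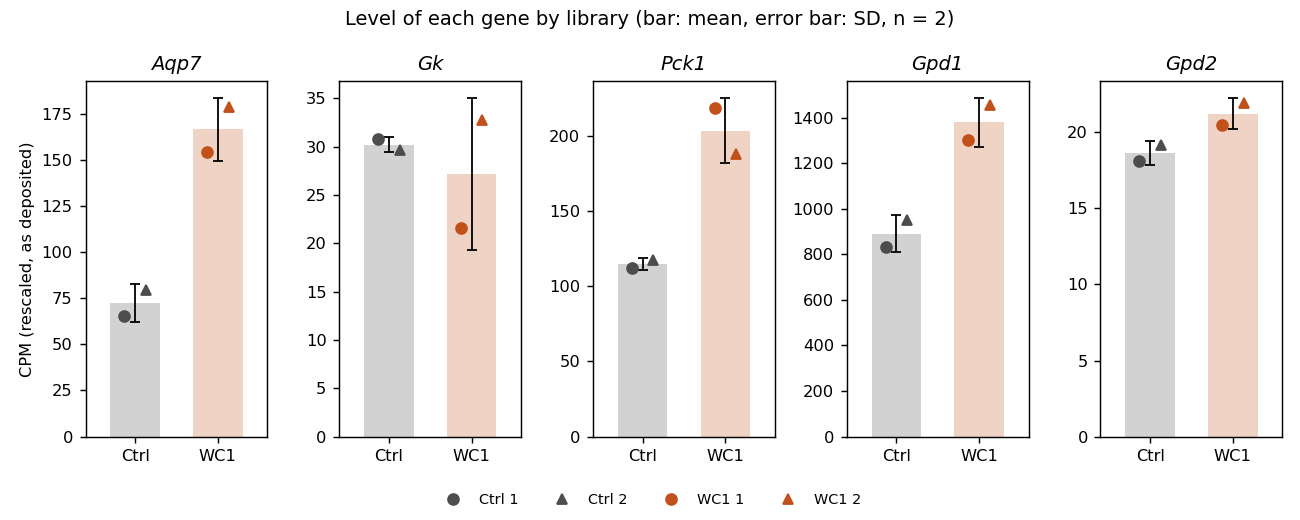
Level of each gene in CPM (vertical axis, starting at 0 and on its own scale in each panel) in the 2 Ctrl and 2 WC1 libraries. Bars are group means, error bars SD (n = 2) and symbols single libraries. Both WC1 values lie above both Ctrl values for Aqp7, Pck1, Gpd1 and Gpd2, while the WC1 values of Gk, 21.6 and 32.7 CPM, fall on either side of the Ctrl values.

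The glycerol channel changed most. Aqp7 was at 65.2 and 79.5 CPM in the Ctrl libraries and at 155 and 179 CPM in the WC1 libraries. The lower WC1 value was well above the higher Ctrl value, and the libraries of a group differed by less than the groups did. The means were 72.4 ± 10.2 CPM in Ctrl versus 167 ± 17.0 CPM in WC1 (SD, n = 2), which rested on 4457 to 11245 reads per library. The log2 fold change was 1.20 ± 0.13 (SE), with a 95% interval from 0.87 to 1.52, and the limma adjusted p was 0.0139. Per transcript length Aqp7 reached 49.3 and 60.8 TPM in Ctrl versus 128 and 152 TPM in WC1, and its mean ranked in the top 12.1% of tested genes. The gene lies on chromosome 4 from 41033074 to 41048139 (minus strand, GRCm38), with no other annotated gene overlapping it.

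Other glycerol channels were expressed far below Aqp7. Aqp9, the aquaglyceroporin best known from the liver, was at 1.17 and 1.28 CPM in Ctrl versus 3.24 and 2.84 CPM in WC1. It rose too, by a log2 change of 0.86 ± 0.13 (limma adjusted p = 0.0209), from a level that the added 1 CPM makes the fold change understate. Aqp3, an aquaglyceroporin of epithelia, ranged from 0 to 0.286 CPM and was under the filter. Aqp7 supplied 98.4% ± 0.0137 of the summed TPM of Aqp3, Aqp7 and Aqp9 in Ctrl versus 98.1% ± 0.214 in WC1.

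Glycerol kinase did not pass the test. Gk had 30.8 and 29.7 CPM in the Ctrl libraries, 21.6 CPM in WC1 1 and 32.7 CPM in WC1 2. The Ctrl libraries were nearly equal, and the WC1 libraries lay on either side of them. The gap between libraries was 41.0% of the mean in WC1 and 3.70% in Ctrl. The means were 30.2 ± 0.791 and 27.2 ± 7.88 CPM, and the log2 fold change was -0.18 ± 0.20, with an interval from -0.68 to 0.33 and a limma adjusted p of 0.547. That interval allows anything from a fall to 0.623 of the Ctrl level to a rise of 1.26-fold. The WC1 libraries disagreed on direction: without WC1 1 the log2 fold change was 0.11, and without WC1 2 it was -0.47, where limma gave an adjusted p of 0.0214. In both of those fits the spread came from the nearly equal Ctrl libraries alone and the lone WC1 library was assumed to vary as they do, so this p says little about Gk. Gk lies on the X chromosome from 85701937 to 85776819 (minus strand) and overlaps 2 annotated loci on the opposite strand, neither of which has a row in the matrices.

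The other glycerol kinase genes were low. Gk5 was at 1.30 to 1.56 CPM over the 4 libraries and did not pass (log2 fold change 0.10, limma adjusted p = 0.569), and Gk2, known from testis, had 0 reads in every library, which allows up to 0.0345 to 0.0492 CPM (3 reads, counting error only). Gk made up 93.3% ± 0.149 of the summed TPM of Gk, Gk2 and Gk5 in Ctrl versus 91.5% ± 2.11 in WC1. Within a library the ratio of Aqp7 to Gk TPM was 3.69 and 4.68 in Ctrl versus 12.5 and 9.43 in WC1. The channel thus stood further above the kinase in each WC1 library than in either Ctrl library, although an exact permutation test on 2 against 2 libraries cannot go below a two-sided p of 0.333. Summed adipocyte markers were higher and summed macrophage markers lower in the same WC1 libraries, and their part in this ratio was not tested.

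Pck1, the enzyme that commits carbon from pyruvate to glyceroneogenesis, rose. It was at 112 and 118 CPM in Ctrl versus 219 and 188 CPM in WC1. The groups did not overlap, and here WC1 1 was the higher WC1 library, whereas WC1 2 was the higher one for Aqp7, Gk, Gpd1 and Gpd2. The means were 115 ± 3.91 and 204 ± 21.7 CPM. The log2 fold change was 0.82 ± 0.10, with an interval from 0.57 to 1.06 and a limma adjusted p of 0.0162. Its TPM was 81.9 and 86.8 in Ctrl versus 174 and 155 in WC1, in the top 9.58% of tested genes, from 7671 to 13357 reads per library. Pck1 lies on chromosome 2 from 173153048 to 173159273 (plus strand), and no other annotated gene overlaps it.

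Pck2, the mitochondrial form of the same enzyme, stayed between 25.2 and 28.0 CPM and its groups overlapped, at a log2 change of 0.05 ± 0.09 (limma adjusted p = 0.719). Pck1 took 85.3% ± 0.791 of the summed TPM of both forms in Ctrl versus 90.8% ± 0.279 in WC1, and the lower WC1 share, 90.7%, was above the higher Ctrl share, 85.9%.

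The dehydrogenases of glycerol 3-phosphate stood at opposite ends of the range of levels. Gpd1, the cytosolic enzyme, was the most abundant of the 5 genes, at 571 and 657 TPM in Ctrl versus 976 and 1124 TPM in WC1, which placed it in the top 1.26% of tested genes. In CPM it was at 833 and 948 in Ctrl versus 1304 and 1455 in WC1. Both WC1 values exceeded both Ctrl values, and the means were 891 ± 81.9 and 1379 ± 107 CPM. Gpd1 rose by a log2 change of 0.63 ± 0.13, with an interval from 0.29 to 0.98 and a limma adjusted p of 0.0390. When genes were tested with no filter on low values the estimate was again 0.63 but the limma adjusted p was 0.0739. Gpd1 lies on chromosome 15 from 99717515 to 99725005 (plus strand), where Gm16537 is annotated on the opposite strand, and the sources used here do not say whether the counting used strand.

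The paralog Gpd1l, which catalyses the same reaction, was at 53.1 to 58.4 CPM with overlapping groups (log2 fold change -0.02 ± 0.08, limma adjusted p = 0.894). The share of Gpd1 in the summed TPM of the pair was 96.2% ± 0.0916 in Ctrl versus 97.5% ± 0.219 in WC1.

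Gpd2, the mitochondrial enzyme, was the least abundant of the 5 genes, at 6.14 and 6.59 TPM in Ctrl versus 7.60 and 8.41 TPM in WC1. Its CPM values were 18.1 and 19.2 in Ctrl versus 20.5 and 22.0 in WC1. The groups did not overlap, but the gap between them was small. The log2 fold change was 0.18 ± 0.09, with an interval from -0.04 to 0.40 and a limma adjusted p of 0.201, so a rise of up to 1.32-fold could not be told from none. Gpd2 lies on chromosome 2 from 57237635 to 57370719 (plus strand) and overlaps 2 loci annotated on the opposite strand. The ratio of Gpd1 to Gpd2 TPM within a library was 93.1 and 99.7 in Ctrl versus 128 and 134 in WC1.

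**Figure D2:**
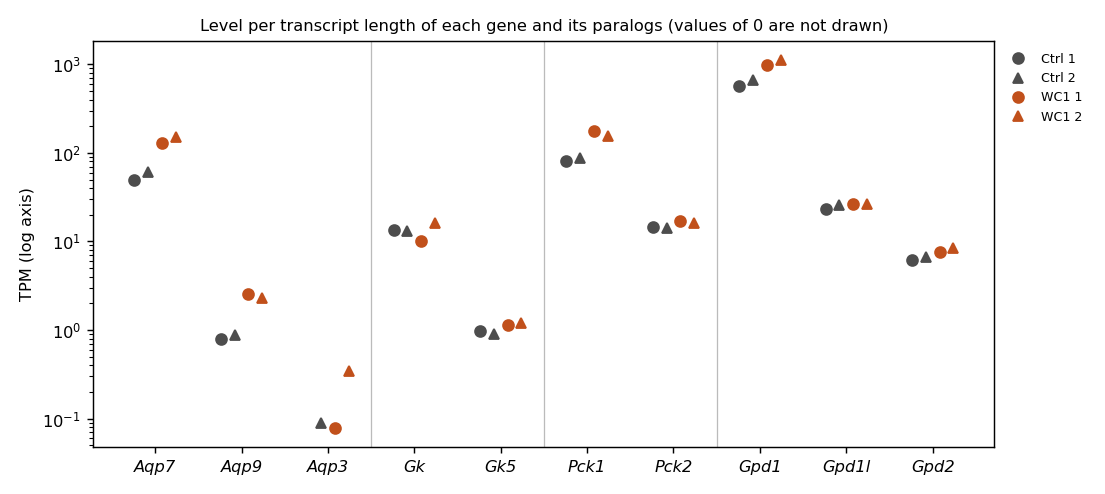
Level per transcript length in TPM (vertical log axis) of the 5 genes and their paralogs, 1 symbol per library. Gpd1 is the highest, at 571 to 1124 TPM. Aqp7 (against Aqp9 and Aqp3 only), Gk, Pck1 and Gpd1 each lie above the paralogs drawn here in every library. Gk2 and the Ctrl 1 value of Aqp3 are at 0 and are not drawn.

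The order of the levels in TPM was Gpd1, Pck1, Aqp7, Gk and Gpd2 in every library. In WC1 2, however, Pck1 and Aqp7 were nearly level, at 155 and 152 TPM. Neighbours in that order did not overlap within a group. By ratio the closest pair was Pck1 and Aqp7 in WC1, at 1.18, whose means of 165 ± 13.9 and 140 ± 17.4 TPM were 24.6 TPM apart, a difference smaller than the sum of the SDs. Gk and Gpd2 in WC1 were 5.18 TPM apart with an SD of 4.19 for Gk. In Ctrl the gap between Pck1 and Aqp7 was 29.3 TPM with SDs of 3.46 and 8.12.

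Each of the 3 rises depended on both Ctrl libraries being in the fit. Leaving out 1 library at a time kept the log2 fold change of Aqp7 between 1.05 and 1.34, of Pck1 between 0.71 and 0.92 and of Gpd1 between 0.54 and 0.73. Without Ctrl 1 the limma adjusted p was 0.126 for Aqp7, 0.150 for Pck1 and 0.363 for Gpd1, and without Ctrl 2 it was 0.0891, 0.105 and 0.225. In those fits the remaining Ctrl library is assumed to vary as the WC1 libraries do, and only 6 and 12 of the 14106 genes passed. Without either WC1 library the 3 genes passed, but there the spread came from the Ctrl pair alone, and without WC1 1 as many as 36.7% of all tested genes passed, so those fits say little about how stable the calls are.

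**Figure D3:**
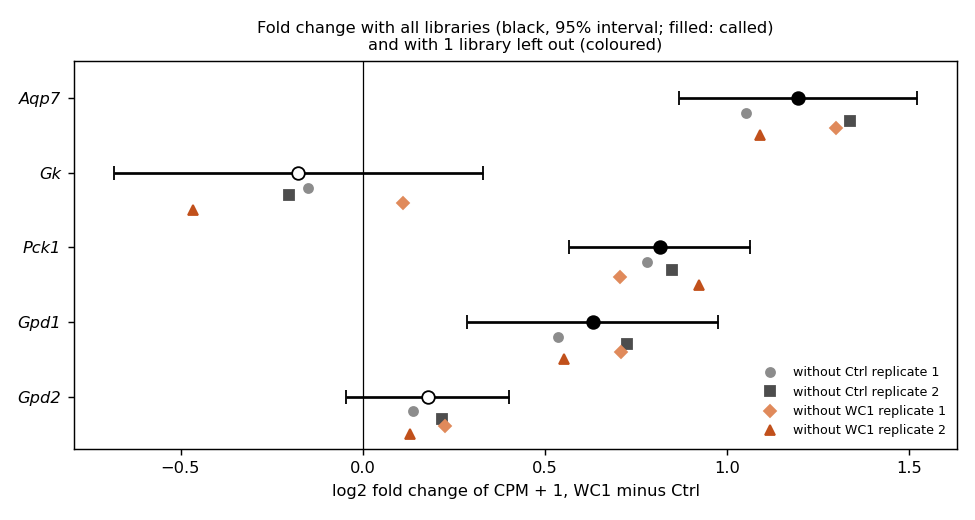
Log2 fold change of CPM + 1, WC1 minus Ctrl (horizontal axis), for each gene. Black circles with 95% intervals are from all 4 libraries, filled where the limma adjusted p was under 0.05, and coloured symbols leave out 1 library. The estimates of Aqp7 stay between 1.05 and 1.34, and those of Gk, from -0.47 to 0.11, fall on both sides of 0.

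The genes around the branch point were then examined as lists drawn up from textbook pathways, with earlier results of these data known. The lists hold none of the 5 genes. Of their 59 genes 56 could be tested, and 20 rose, 4 fell and 32 did not pass, with a median log2 fold change of 0.24 against -0.02 for all tested genes. Over all tested genes 10.2% were higher and 7.71% lower, so the share of falls in these lists was near that of the whole table. Glycerol release and the path from glycerol 3-phosphate to triglyceride held most of the rises. With no filter on low values 11 of the 56 were higher and 2 lower, so 9 of the 20 rises were lost there. Without Ctrl 1 or Ctrl 2, limma passed 0 of the 56, with 21 and 27 at an unadjusted p under 0.05.

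Of the 8 genes of glycerol release, 7 rose and the median log2 fold change was 0.74. The 10 adipocyte markers had a larger median, 1.28, with 8 called, and their part in the values of this list was not tested. With no filter on low values only Mgll still passed (limma adjusted p = 0.0429), and the other 6 rises were lost. Mgll, the lipase that frees glycerol from monoacylglycerol, was at 620 and 753 CPM in Ctrl versus 1392 and 1586 CPM in WC1, a log2 change of 1.12 ± 0.15 (limma adjusted p = 0.0188). Lipe, hormone-sensitive lipase, rose by 0.94 ± 0.19 on the log2 scale, and the lipid droplet coat protein Plin1, which is also one of the adipocyte markers, by 1.03 ± 0.18. Abhd6, another monoacylglycerol lipase, rose by 0.57 ± 0.12. G0s2 rose as well, by 0.78 ± 0.15, and its protein inhibits the triglyceride lipase encoded by Pnpla2. The only gene of this list that did not pass was Faah, at 0.980 to 2.10 CPM, named here after its values were seen.

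The 11 tested genes on the path from glycerol 3-phosphate to triglyceride had 6 rises, 1 fall and a median of 0.50. Gpam, the mitochondrial acyltransferase that takes glycerol 3-phosphate in the first step, rose from 26.9 and 21.5 CPM to 43.5 and 54.5 CPM, and Gpat3, which does so in the endoplasmic reticulum, from 27.5 and 25.9 CPM to 36.2 and 40.2 CPM. Their limma adjusted p were 0.0238 and 0.0275. The next steps had rises too, in Agpat2, which adds the second fatty acid (log2 fold change 0.69), in Lpin1, a phosphatidate phosphatase (0.87), and in Dgat1, which adds the last fatty acid (0.65). The single fall was in Lpin2, another phosphatidate phosphatase, at 45.4 and 43.9 CPM in Ctrl versus 35.9 and 30.4 CPM in WC1 (limma adjusted p = 0.0488, named after its values were seen). It did not pass in TPM, where the limma adjusted p was 0.123, or with no filter on low values, where it was 0.0744. Agpat2, Lpin1, Dgat1, Gpam and Gpat3 still passed with no filter. Dgat2, named after its values were seen, rose by 0.99 on the log2 scale but did not pass with no filter (limma adjusted p = 0.0748). Gpat2 was under the filter.

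Of the 20 genes that supply glyceroneogenesis with carbon, 14 did not pass, 4 rose and 2 fell, and the median was 0.03. Over all tested genes 10.2% rose and 7.71% fell. The counts of this list depended on the test, since the TPM matrix gave 8 higher and 1 lower and DESeq2 on the recovered reads gave 7 higher and 6 lower. Pcx, pyruvate carboxylase, which makes the oxaloacetate that Pck1 uses after its export as malate or aspartate, was at 386 and 409 CPM in Ctrl versus 704 and 846 CPM in WC1, a rise of 0.96 ± 0.12 on the log2 scale (limma adjusted p = 0.0177). Slc25a10, the dicarboxylate carrier that can carry malate out of mitochondria, rose by 0.69 ± 0.09, the citrate carrier Slc25a1 by 0.67 ± 0.09, and Mpc2, a subunit of the pyruvate carrier of mitochondria, by 0.49 ± 0.07. Pgk1, a glycolytic kinase, fell by 0.68 on the log2 scale, from 318 and 277 CPM to 194 and 175 CPM (limma adjusted p = 0.0227). The other fall was in Got2, mitochondrial aspartate aminotransferase, with a log2 change of -0.44 (limma adjusted p = 0.0313, named after its values were seen). Got2 did not pass in TPM (limma adjusted p = 0.0550) or with no filter on low values (0.0513), whereas Pgk1 passed in both, at 0.0313 and 0.0434.

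Of the 5 tested genes in the list of glycerol channels and kinases, Aqp9 and Aqp1 rose. Aqp1, a water channel of capillary endothelium and red cells, went from 158 and 178 CPM to 311 and 464 CPM (log2 fold change 1.18 ± 0.20, limma adjusted p = 0.0268), and did not pass with no filter on low values (0.0526). All 6 endothelial markers were higher in both WC1 libraries and 5 of them rose, against 32.7% and 10.2% of all tested genes. Their summed level was 212 and 246 TPM in Ctrl versus 473 and 628 TPM in WC1. The part of these markers in the values of Aqp1 and Aqp7, which is also known from capillaries of fat, was not tested. Aqp11, a channel inside cells, did not pass at 1.65 to 2.53 CPM.

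Among the 12 transcription regulators known at these genes, 1 rose, 1 fell and 10 did not pass, shares near those over all tested genes. Pparg was at 67.2 and 67.8 CPM in Ctrl versus 85.3 and 95.1 CPM in WC1, a log2 change of 0.41 ± 0.08 (limma adjusted p = 0.0327), and did not pass with no filter on low values (0.0518). Cebpb, a factor of early adipocyte differentiation that macrophages also use, fell by 0.78, from 70.5 and 73.6 CPM to 39.6 and 43.8 CPM (limma adjusted p = 0.0135). Foxo1, a factor restrained by insulin, was at 43.9 and 47.7 CPM in Ctrl versus 54.9 and 63.1 CPM in WC1 with a limma adjusted p of 0.0628.

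**Figure D4:**
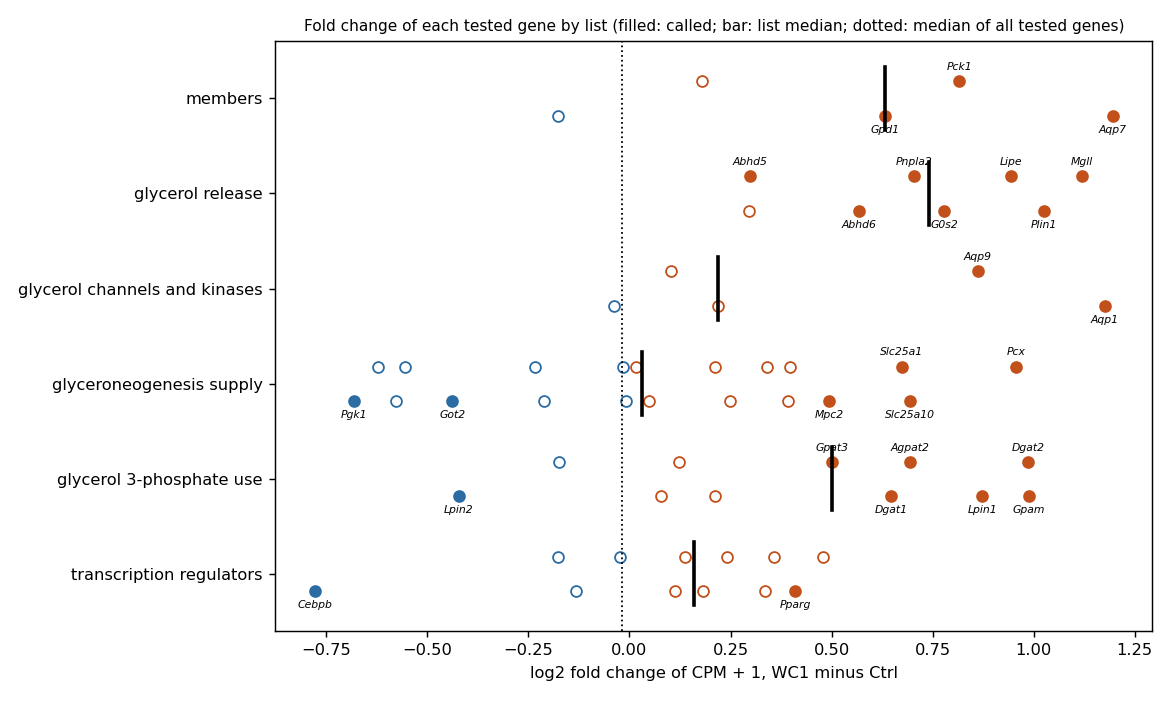
Log2 fold change of CPM + 1, WC1 minus Ctrl (horizontal axis), of each tested gene, arranged by list. Filled and named symbols passed an adjusted p of 0.05, black bars are list medians and the dotted line is the median of all tested genes, -0.02. Of the 8 glycerol release genes 7 are filled, all on the right, while the glyceroneogenesis supply genes spread from -0.68 to 0.96.

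Marker genes of several cell types differed between the groups. All 10 adipocyte markers were detected, all lay higher in both WC1 libraries, and 8 rose. Over all tested genes 32.7% lay higher in both WC1 libraries, 10.2% rose and 7.71% fell. The summed level of the 10 was 5816 and 7657 TPM in Ctrl versus 13889 and 21595 TPM in WC1. Adipoq, the gene of the fat cell hormone adiponectin, rose by 1.23 on the log2 scale. With no filter on low values limma passed 0 of the 10 adipocyte markers, all 10 at an unadjusted p under 0.05, while on the recovered reads edgeR passed 8 and DESeq2 10. Of 10 macrophage markers 5 fell. The sum over all 10 was 19732 and 18180 TPM in Ctrl versus 12292 and 9015 TPM in WC1. Much of it was Lyz2, at 11192 and 9774 TPM in Ctrl versus 5668 and 4169 TPM in WC1. Of 8 fibroblast and progenitor markers 3 fell. The sum over all 8 was 5113 and 5103 TPM in Ctrl versus 4688 and 3873 TPM in WC1. Col1a1 (log2 fold change 0.09) and Dpp4 (0.27) went the other way and did not pass. Lyz2, Col1a1 and Dpp4 are named after their values were seen. With no filter on low values 1 fall remained in each list, and in TPM limma called 3 macrophage and 2 fibroblast markers lower. Summed erythroid markers were at 688 and 1104 TPM in Ctrl versus 1588 and 1767 TPM in WC1, where 1 of 5 rose. The rise was in Hba-a1, and single globin values such as this one are uncertain, since near-identical globin genes had reads in some libraries and almost none in others: Hba-a2, named like Hba-a1 after its values were seen, was at 0.164 CPM in WC1 1 and 231 CPM in WC1 2. Brown adipocyte markers summed to only 20.5 to 32.0 TPM, with Ucp1 under the filter, and of 6 epididymis markers 4 were at 0 in every library and the sum reached at most 2.15 TPM, in WC1 1.

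The 5 genes were therefore also set against the adipocyte markers within each library, by subtracting the mean log2(CPM + 1) of the 10 markers, which was 8.16 ± 0.25 in Ctrl versus 9.40 ± 0.44 in WC1. The marker mean was thus 1.24 higher in WC1, and a gene with equal CPM in both groups would lie lower by that amount on this scale. On this scale Aqp7 was at -1.93 and -2.01 in Ctrl versus -1.81 and -2.22 in WC1, so the groups overlapped and the difference was -0.05 (exact permutation p = 1). Pck1 overlapped too, at -1.16 and -1.45 in Ctrl versus -1.31 and -2.15 in WC1, a difference of -0.43. Gpd1, in contrast, was lower in both WC1 libraries relative to the markers, at 1.26 and 0.80 against 1.72 and 1.55, and so were Gpd2, with a difference of -1.06, and Gk. For Gk the values were -2.99 and -3.40 in Ctrl versus -4.59 and -4.63 in WC1, a difference of -1.42, which is that shift together with its own uncalled change of -0.18. For Gk, Gpd1 and Gpd2 the exact two-sided permutation p was 0.333, the smallest that this design allows. With Plin1 alone as the reference the differences were 0.17 for Aqp7, -0.21 for Pck1, -0.39 for Gpd1, -0.85 for Gpd2 and -1.20 for Gk, and Aqp7 then lay higher in both WC1 libraries. How much of the rises of Aqp7, Pck1 and Gpd1 moved with adipocyte content was not tested beyond these values.

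**Figure D5:**
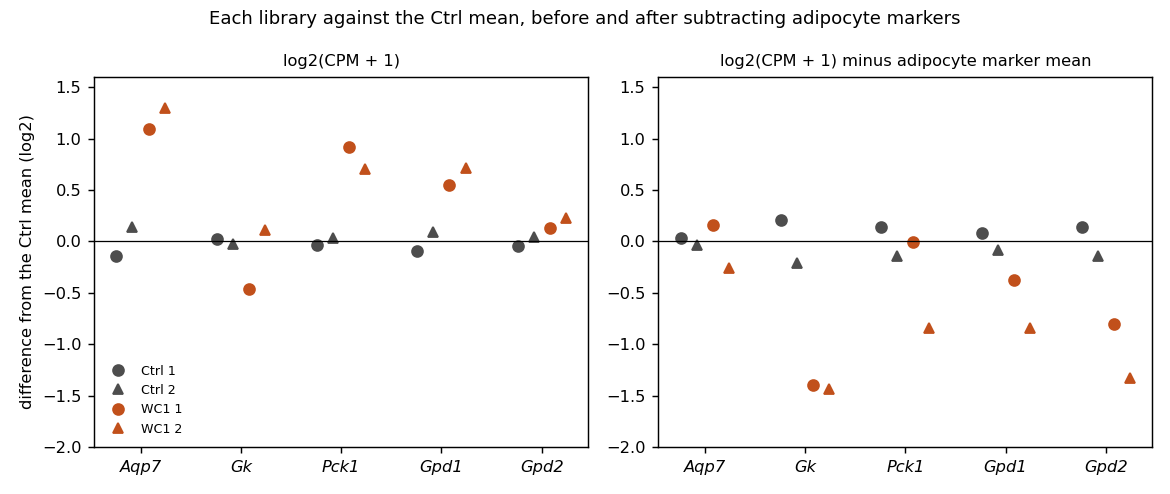
Difference of each library from the Ctrl mean in log2 units (vertical axis), for log2(CPM + 1) on the left and for log2(CPM + 1) minus the mean of 10 adipocyte markers on the right, 1 symbol per library. Aqp7 is above Ctrl on the left and overlaps it on the right, while Gk, which overlaps Ctrl on the left, is lower in both WC1 libraries on the right, with a difference of -1.42, where the shift of the markers by 1.24 alone would place an unchanged gene nearly as low.

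The genes whose pattern over the 4 libraries was nearest to each of the 5 were found by the root mean square distance between centred log2(CPM + 1) values, among 10795 tested genes with a mean of at least 5 CPM. Nearest to Aqp7 were Pdzd2 (distance 0.012), Dll1 (0.018) and Sntb1 (0.025), and to Pck1 Chdh (0.021), Usp14 (0.035) and Elovl6 (0.035). For Gpd1 they were Bcl2l13 (0.0084), Sh2d3c (0.013) and Slc24a3 (0.015), and for Gpd2 Stau1 (0.0052), Sgcb (0.0058) and Mrpl27 (0.0074). Near to Gk were Csrp2 (0.028) and Ctdsp2 (0.049), both of which, like Gk, were lowest in WC1 1. Between the 5 genes themselves the nearest pair was Gpd1 and Pck1, at 0.167, and the farthest was Aqp7 and Gk, at 0.708.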

How the data were processed

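Samples were grouped by their titles, 2 libraries as Ctrl and 2 as WC1. The authors deposited a pair of gene-by-library matrices. The first holds a deposited signal called CPM, the reads of each gene divided by a rescaled library size, with columns summing to 97.6% to 105% of what plain CPM would give. In each library 100% of its values were whole reads within 0.01 read, which gave the read totals. The second holds TPM as the authors deposited them, scaled to the same sum per library. The submitters' processing notes name fastp, HISAT2, StringTie and mm10. For the read counter, strand setting and annotation nothing is given in the sources used here.

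The comparison of WC1 and Ctrl used limma 3.58.1 (R 4.3.3), two-sided, with a trend of the moderated variance on abundance, on log2(CPM + 1), which understates changes of low genes. Genes needed at least 0.5 CPM in at least 2 libraries, and Benjamini-Hochberg adjustment ran over all tested genes at 0.05. Fold changes are WC1 minus Ctrl. The scripts were tested on simulated data. The spread rests on 2 libraries per group, and 3 reads came to 0.0345 to 0.0492 CPM.

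The members, lists and tests were chosen with earlier results of these data known; the rule for the members itself uses no measured value. Besides the 5 members, the text names their paralogs, from each pathway list the 3 genes with the smallest p and any called gene up to 5 in all, the 3 nearest patterns per member (predicted genes, Rik symbols and pseudogenes skipped; 1 of those of Gk is not reported here), Adipoq and Plin1; others are said to be named after their values were seen. Marker lists covered adipocytes, macrophages, fibroblasts and progenitors, endothelium, brown adipocytes, epididymis and erythroid cells. Positions are from GENCODE M21 and promoters from RefSeq, where 4 of the 5 members matched and Gpd1 did not. Gpat3 is written Agpat9 in the matrices. Alternatives were other pseudocounts, filters and scalings, the TPM matrix, edgeR 4.0.16 and DESeq2 1.42.0 on the recovered reads, a block for the library number, and leaving out each library.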

Additional observations from a re-analysis of the deposited data

How the results depend on the processing

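Over 14 alternatives each, Aqp7 and Pck1 kept their direction and their call in 12, Gpd1 in 11, Gk in 12 and Gpd2 in 14. The exceptions for Aqp7 and Pck1 were the fits without a Ctrl library. Leaving out 1 library gave 1.05 to 1.34 for Aqp7, 0.71 to 0.92 for Pck1, 0.54 to 0.73 for Gpd1, 0.13 to 0.23 for Gpd2 and -0.47 to 0.11 for Gk, 2 to 2424 genes higher and 4 to 2748 lower, and 0 to 28 pathway genes higher and 0 to 8 lower. Gk turned to 0.11 without WC1 1 and was called at -0.47 without WC1 2. With no filter Gpd1 was not called at 0.63 (limma adjusted p = 0.0739), and 788 genes were higher and 532 lower, of which 11 and 2 were pathway genes, with 18132 genes in the adjustment. In TPM 552 genes were lower, 2 of them pathway genes, the median of all genes was 0.12 higher than in CPM, and relative to that median Aqp7 was at 1.23, Pck1 at 0.85, Gpd1 at 0.67, Gpd2 at 0.19 and Gk at -0.13. DESeq2 called 1736 genes lower, 8 of them pathway genes. The cause of these shifts was not tested. With CPM in place of TPM the family shares were 98.3% for Aqp7 in Ctrl, and in Ctrl and WC1 95.7% and 94.5% for Gk, 94.1% and 96.2% for Gpd1 and 81.7% and 88.4% for Pck1. Against Plin1 alone Aqp7 was at 0.17 and Gk at -1.20.

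With the library number as a replicate block, limma called 1769 genes higher and 1497 lower, and none of the 5 genes changed its call, with log2 fold changes of 1.20 for Aqp7, 0.82 for Pck1, 0.63 for Gpd1, 0.18 for Gpd2 and -0.18 for Gk. The labels do not say that a number marks a shared animal or day, and the differences between libraries 1 and 2 in Ctrl and in WC1 correlated across 14106 genes with r = 0.19, so a pairing of the libraries was not established.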

Other observations

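The glycerol phosphate shuttle of Gpd1 and Gpd2 and the malate-aspartate shuttle both carry the reducing power of cytosolic NADH to mitochondria, and genes of the second were looked at after their values had been seen, so they are a description. Both of its aspartate-glutamate carriers lay lower in both WC1 libraries, as did 36.6% of all tested genes: Slc25a12 was at 33.3 and 29.4 CPM in Ctrl and 23.4 and 18.1 CPM in WC1, and Slc25a13 at 44.4 and 37.0 CPM in Ctrl and 31.4 and 21.4 CPM in WC1. Got1, the cytosolic aspartate aminotransferase, was at 34.2 and 40.0 CPM in Ctrl and 27.6 and 22.4 CPM in WC1. None of the 3 passed, with limma adjusted p of 0.0530, 0.0895 and 0.0503, while Got2 did. DESeq2 on the recovered reads called all 3 lower, with adjusted p of 0.00468, 0.0186 and 0.00409. Of the 3, edgeR called Got1 alone, at 0.0480, and in TPM limma called none, at 0.0841, 0.140 and 0.0865. Slc25a11, the malate carrier of this shuttle, was at 100 and 95.9 CPM in Ctrl and 87.2 and 82.1 CPM in WC1. It too lay lower in both WC1 libraries and did not pass (limma adjusted p = 0.0979). The malate dehydrogenases lay on the other side, higher in both WC1 libraries, as were 32.7% of all tested genes. Mdh1 was at 307 and 283 CPM in Ctrl and 357 and 391 CPM in WC1. Mdh2 was at 187 and 195 CPM in Ctrl and 221 and 233 CPM in WC1. Their limma adjusted p were 0.0627 and 0.0778 and their DESeq2 adjusted p 0.00997 and 0.0363. In TPM limma called both higher, at 0.0379 and 0.0424, and edgeR called neither, at 0.0637 and 0.0834. Summed macrophage markers were lower and summed adipocyte markers higher in the same WC1 libraries, and their part in these values was not tested.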
